A study of Mus musculus with 12 samples.

Results

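The 9 genes Abca13, Upp1, Nptx2, Cdk5r1, Gstt1, Ramp3, Susd2, Pla1a and Dnah1 had higher mean levels in type 1 conventional dendritic cells (cDC1) of mice given a CD40 agonist than in cDC1 of mice not given it, with and without a tumor, and none of them belongs to the usual description of a dendritic cell. They were chosen for this: large differences with the agonist and low levels without it, as measured in the same libraries. They are 9 of the 31027 genes with a count in at least 1 library, and their 28 annotated transcripts are among the 136288 in the deposited tables. RNA from cDC1 of mouse inguinal lymph nodes was sequenced in 12 libraries, 3 in each of 4 groups. The mice differed in a KPC tumor under the skin (KPC tumor cells come from mice engineered to develop pancreatic cancer) and in treatment with a CD40 agonist. Tumor-CD40 mice carried the tumor and received the agonist, and Tumor-NoCD40 mice carried the tumor and received none. NoTumor-CD40 mice had no tumor and received the agonist, and NoTumor-NoCD40 mice had neither. The labels name the agonist only as such, and give no strain, age, dose, time of treatment or sort gate. Nor do they state that each library is a separate animal, so the p-values reflect the spread among these samples alone, which may be technical.

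CD40 is a receptor that helper T cells engage on dendritic cells, and its signal moves a dendritic cell from a resting to a mature state, with Ccr7 for migration and PD-L1 (Cd274) among the genes that mark that state. cDC1 are the dendritic cells specialised in taking up dead cells and showing their antigens to CD8 T cells, and Xcr1 is one of their defining receptors. The 9 genes are better known from other settings: nucleoside salvage (Upp1), detoxification (Gstt1), lipid transport and cleavage (Abca13, Pla1a), peptide hormone receptors (Ramp3), cell surface contacts (Susd2), synapses (Nptx2, Cdk5r1) and cilia (Dnah1).

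Each library held 22855143 to 27163393 expected counts over 20167 to 22523 detected genes. Levels are given as CPM (counts scaled to a common, normalized library total), where a gene's value can be compared between libraries, and as TPM where genes are compared with each other. All 13 genes of a cDC1 marker list were detected, and their summed level was 4452 to 6059 CPM in Tumor-CD40, 2541 to 11935 CPM in Tumor-NoCD40, 3243 to 8609 CPM in NoTumor-CD40 and 7611 to 10446 CPM in NoTumor-NoCD40 libraries. Pairs of libraries of 1 group correlated at 0.907 to 0.949 (log2 CPM), and pairs of different groups at 0.899 to 0.949. The titles carry a prefix, whose meaning the labels do not give. Libraries of different groups share it, except that the third NoTumor-NoCD40 library has a prefix of its own. For that library, prefix and group cannot be told apart. In bulk samples a gene made by more of the cells and a gene made in larger amount per cell cannot be told apart, nor can fewer cells of a type and less RNA per cell.

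The promoters of the members are shown where RefSeq's table (build GRCm38.p6) has an entry, which held for 5 of the 9 genes; Nptx2, Cdk5r1, Susd2 and Pla1a had none. The 250 bases before the start were searched on both strands for the interferon-stimulated response element (ISRE, the letters GAAA, any 2 bases, GAAA), the AP-1 site (TGANTCA), the TATA box (TATAAA) and the NF-kB consensus, motifs of factors that act after CD40 or interferon signals, plus the general start element. Of 32851 promoters in the table, 2.98% held the ISRE letters, 6.75% the AP-1 letters, 12.4% the TATA box letters and 3.9% the NF-kB consensus. Upp1 and Abca13 varied together within groups (r of deviations 0.63), and Nptx2 and Cdk5r1, on different chromosomes, more so (0.79). Upp1 and Abca13, neighbours on chromosome 11, are printed first, followed by the pair of promoters that held an ISRE or NF-kB match. Capitals mark a match.
Upp1, chr11:9117853-9118102, plus strand: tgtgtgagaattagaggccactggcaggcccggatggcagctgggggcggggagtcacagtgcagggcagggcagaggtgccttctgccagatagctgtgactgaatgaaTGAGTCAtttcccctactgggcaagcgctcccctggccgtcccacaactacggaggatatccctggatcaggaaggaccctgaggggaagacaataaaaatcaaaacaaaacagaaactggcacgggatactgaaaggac
Abca13, chr11:9191692-9191941, plus strand: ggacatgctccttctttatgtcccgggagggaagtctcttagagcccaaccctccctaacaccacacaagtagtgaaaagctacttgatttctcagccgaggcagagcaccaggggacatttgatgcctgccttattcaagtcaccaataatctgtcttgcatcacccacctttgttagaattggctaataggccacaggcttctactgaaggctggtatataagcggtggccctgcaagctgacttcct
Ramp3, chr11:6658283-6658532, plus strand: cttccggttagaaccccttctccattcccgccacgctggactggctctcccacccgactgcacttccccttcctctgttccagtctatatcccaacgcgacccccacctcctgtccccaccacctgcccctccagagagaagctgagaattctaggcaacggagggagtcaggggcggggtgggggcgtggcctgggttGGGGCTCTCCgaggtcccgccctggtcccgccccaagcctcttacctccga
Gstt1, chr10:75797732-75797981, minus strand: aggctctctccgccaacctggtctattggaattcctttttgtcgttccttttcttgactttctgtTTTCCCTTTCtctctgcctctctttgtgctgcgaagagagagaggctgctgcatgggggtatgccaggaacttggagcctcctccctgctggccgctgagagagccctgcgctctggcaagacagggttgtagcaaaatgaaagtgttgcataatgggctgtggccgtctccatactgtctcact
The Upp1 window, the one that ends next to the annotated start of the gene, held 1 AP-1 match, 140 to 134 bases before the start. The Ramp3 window held 1 NF-kB match, 51 to 42 bases before the start. The Gstt1 window ends at the start of the short transcript Gstt1-203 (75797731), inside the gene as annotated from the start of Gstt1-201 (75798584), and held 1 ISRE match on the opposite strand, 185 to 176 bases before that inner start. No searched motif was found in the Abca13 window or in that of Dnah1. A match is a run of letters and not a measured binding site, and a window without one says nothing about any factor.

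Among the enzymes and transporters, Upp1 and Abca13 had the largest differences between agonist and no agonist. Upp1 (ENSMUSG00000020407, chr11:9118103-9136170, plus strand) encodes uridine phosphorylase, which splits uridine into uracil and a sugar phosphate. It had 22.4, 44.6 and 15.1 CPM in Tumor-CD40 libraries, against 0.702, 2.45 and 0.836 CPM in Tumor-NoCD40 libraries, a 20.3-fold higher level (log2 fold change 4.35 ± 0.51, SE). In mice without tumor it had 22.9, 19.5 and 13 CPM in NoTumor-CD40 libraries, against 1.42, 1.15 and 0.656 CPM in NoTumor-NoCD40 libraries, a 17-fold higher level (log2 fold change 4.09 ± 0.55, SE). All 6 agonist libraries lay above all 6 libraries without agonist, and the lowest agonist value, 13 CPM, was over 5 times the highest value without agonist, 2.45 CPM, in the second Tumor-NoCD40 library; without that library the log2 fold change with tumor was 5.13.

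Abca13 (ENSMUSG00000004668, chr11:9191942-9684259, plus strand) encodes a very large membrane protein of the ABC transporter subfamily A, whose members move lipids. It had 35.8, 70.3 and 27 CPM in Tumor-CD40 libraries, against 2.56, 2.79 and 0.654 CPM in Tumor-NoCD40 libraries (22.4-fold, log2 fold change 4.48 ± 0.54, SE). It had 18.9, 38.4 and 13.6 CPM in NoTumor-CD40 libraries, against 1.99, 1.07 and 0.902 CPM in NoTumor-NoCD40 libraries (17.7-fold, log2 fold change 4.15 ± 0.59, SE). As for Upp1, agonist and untreated libraries did not overlap, and the second library was the highest of its group in both agonist groups.

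Gstt1 (ENSMUSG00000001663, chr10:75783813-75798584, minus strand) encodes a theta class glutathione transferase, an enzyme that couples glutathione to reactive small molecules. It had 7.75, 4.67 and 5.71 CPM in Tumor-CD40 libraries, against 4.88, 1.2 and 1.31 CPM in Tumor-NoCD40 libraries (2.51-fold, log2 fold change 1.33 ± 0.50, SE). It had 6.87, 4.32 and 8.21 CPM in NoTumor-CD40 libraries, against 0.918, 0.384 and 0.328 CPM in NoTumor-NoCD40 libraries (11.7-fold, log2 fold change 3.55 ± 0.65, SE). The first Tumor-NoCD40 library reached the range of the agonist libraries, so the groups overlapped with tumor and did not overlap without it. Without that library, the log2 fold change with tumor was 2.25, and without the first NoTumor-NoCD40 library that without tumor was 4.16.

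Pla1a (ENSMUSG00000002847, chr16:38396117-38433145, minus strand) encodes a secreted phospholipase that cuts phosphatidylserine and so makes lysophosphatidylserine. It had 13.6, 13.2 and 9.67 CPM in Tumor-CD40 libraries, against 3.47, 1.88 and 2.47 CPM in Tumor-NoCD40 libraries (4.68-fold, log2 fold change 2.23 ± 0.62, SE). It had 13, 2.04 and 22.7 CPM in NoTumor-CD40 libraries, against 0.765, 1.65 and 1.02 CPM in NoTumor-NoCD40 libraries (10.9-fold, log2 fold change 3.45 ± 0.72, SE). The second NoTumor-CD40 library was only just above the highest NoTumor-NoCD40 library, and without the third NoTumor-CD40 library the log2 fold change without tumor was 2.69.

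Among the receptor components and surface or secreted proteins, Ramp3 was the most abundant per transcript length. Ramp3 (ENSMUSG00000041046, chr11:6658521-6677475, plus strand) encodes a small membrane protein that joins the receptor Calcrl and turns it into a receptor for adrenomedullin. It had 51, 75.1 and 54.3 CPM in Tumor-CD40 libraries, against 25.2, 13 and 16.4 CPM in Tumor-NoCD40 libraries (3.31-fold, log2 fold change 1.73 ± 0.51, SE). It had 89.8, 13.9 and 73.6 CPM in NoTumor-CD40 libraries, against 8.34, 4.64 and 2.42 CPM in NoTumor-NoCD40 libraries (11.4-fold, log2 fold change 3.51 ± 0.59, SE). The second NoTumor-CD40 library was far below the other agonist libraries and within the range of Tumor-NoCD40 libraries.

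Susd2 (ENSMUSG00000006342, chr10:75636706-75644008, minus strand) encodes a membrane protein with a sushi domain, whose human counterpart binds galectin 1. It had 27, 40.5 and 18.1 CPM in Tumor-CD40 libraries, against 10.5, 1.73 and 6.61 CPM in Tumor-NoCD40 libraries (4.59-fold, log2 fold change 2.20 ± 0.51, SE). It had 36.6, 31.3 and 74.7 CPM in NoTumor-CD40 libraries, against 6.47, 3.3 and 2.79 CPM in NoTumor-NoCD40 libraries (11.3-fold, log2 fold change 3.50 ± 0.53, SE). All 6 agonist libraries were above all 6 others.

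Nptx2 (ENSMUSG00000059991, chr5:144545902-144557478, plus strand) encodes a secreted pentraxin that gathers glutamate receptors at synapses. It had 13.3, 10.2 and 7.97 CPM in Tumor-CD40 libraries, against 3.06, 1.24 and 5.05 CPM in Tumor-NoCD40 libraries (3.33-fold, log2 fold change 1.74 ± 0.62, SE). It had 23.4, 11 and 55 CPM in NoTumor-CD40 libraries, against 3.18, 1.46 and 0.738 CPM in NoTumor-NoCD40 libraries (16.4-fold, log2 fold change 4.04 ± 0.64, SE). The NoTumor-CD40 libraries differed 5-fold among themselves, and without the highest of them the log2 fold change without tumor was 3.24, while without the first NoTumor-NoCD40 library it was 4.74.

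Of the intracellular proteins, Cdk5r1 (ENSMUSG00000048895, chr11:80477023-80481184, plus strand) encodes the activating subunit of the kinase CDK5, studied mainly in neurons. It had 28.5, 41 and 50.9 CPM in Tumor-CD40 libraries, against 12, 6.1 and 10.9 CPM in Tumor-NoCD40 libraries (4.16-fold, log2 fold change 2.06 ± 0.41, SE). It had 53.9, 32.8 and 99.7 CPM in NoTumor-CD40 libraries, against 7.5, 3.91 and 3.69 CPM in NoTumor-NoCD40 libraries (12.3-fold, log2 fold change 3.62 ± 0.44, SE). The lowest agonist library was more than 2 times the highest library without agonist.

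Dnah1 (ENSMUSG00000019027, chr14:31260375-31323896, minus strand) encodes a heavy chain of the dynein motors that bend cilia and sperm tails, and was the scarcest member per transcript length in Tumor-CD40 and Tumor-NoCD40 libraries. It had 5.97, 7.97 and 3.01 CPM in Tumor-CD40 libraries, against 0.124, 0.0753 and 1.27 CPM in Tumor-NoCD40 libraries (11-fold, log2 fold change 3.45 ± 0.71, SE). It had 4.93, 9.03 and 8.25 CPM in NoTumor-CD40 libraries, against 0.65, 0.384 and 1.07 CPM in NoTumor-NoCD40 libraries (10.6-fold, log2 fold change 3.41 ± 0.64, SE). The agonist libraries were above all others, but the Tumor-NoCD40 values rest on 3, 2 and 35 counts. Without the third Tumor-NoCD40 library the log2 fold change with tumor was 5.77, so its size is poorly fixed.

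**Figure D1:**
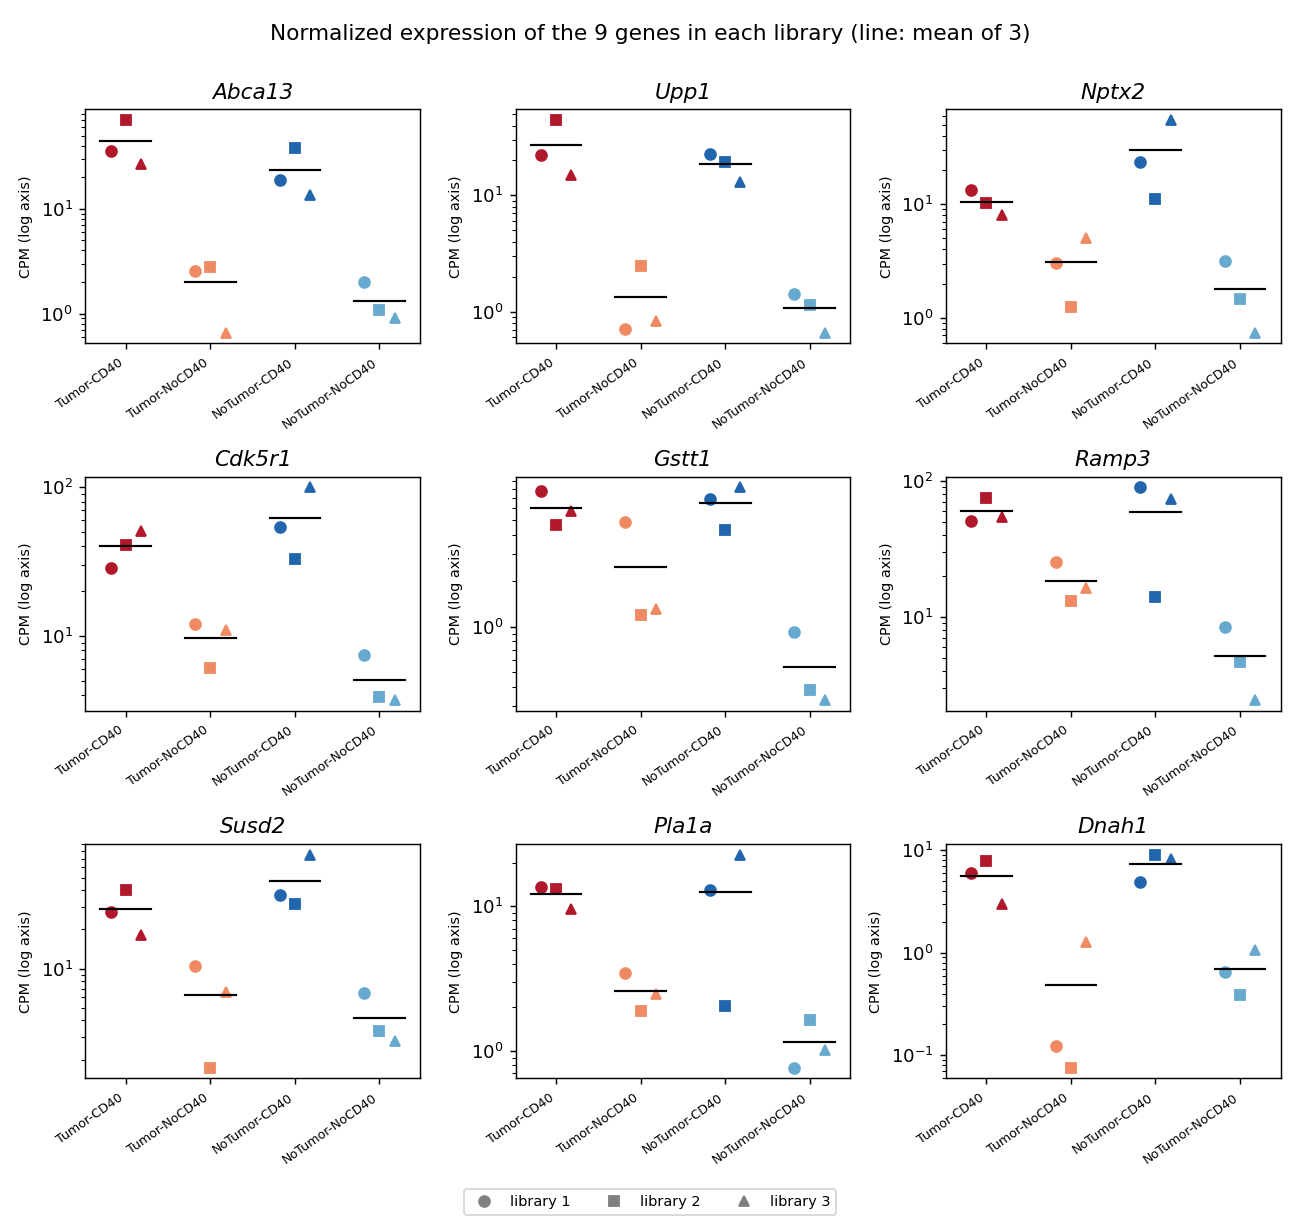
Levels of the 9 genes in each library, in CPM on a log axis, 1 panel a gene; each point is 1 library and the line is the mean of the 3 libraries of a group. For Upp1 and Abca13 the agonist libraries stand clear of all others, while the first Tumor-NoCD40 library of Gstt1 (4.88 CPM) and the second NoTumor-CD40 library of Ramp3 (13.9 CPM) and Pla1a (2.04 CPM) lie among libraries of the other kind.

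Since the members were chosen on these differences, the calls of the model describe them and support nothing. With edgeR's quasi-likelihood test, adjusted over all genes by Benjamini-Hochberg, 4 of 9 members (Abca13, Upp1, Cdk5r1 and Dnah1) passed an adjusted p of 0.05 with tumor, where 0.641% of 18095 genes were called higher. Without tumor all 9 passed, where 1.36% of genes were called higher. These counts depend on single libraries: with tumor 2 members passed without the second Tumor-CD40, the first or the second Tumor-NoCD40, or the second NoTumor-NoCD40 library, and without tumor 2 passed without the second or the third NoTumor-NoCD40 library and 5 without the third NoTumor-CD40 library. In 8 of 9 members every Tumor-CD40 library was above every Tumor-NoCD40 library, against 6.5% of all genes, and in 9 of 9 every NoTumor-CD40 library was above every NoTumor-NoCD40 library, against 11.2%. Over both tumor states, 6 of 9 members separated all 6 agonist libraries from the 6 others, as 1.33% of all genes did. The members that did not were Gstt1, Ramp3 and Pla1a, and for each of them the same libraries overlapped: the second NoTumor-CD40 library was the lowest with agonist and the first Tumor-NoCD40 library the highest without. The third NoTumor-NoCD40 library, the lowest of its group for 7 of 9 members, shares its title prefix with no other library. The part of the prefix in its low levels was not tested. The other libraries gave 5 pairs with and without agonist that share a title prefix and a tumor state. Their ratios, agonist over none, ran from 16.2 to 31.9 for Upp1, 9.51 to 41.3 for Abca13 and 2.37 to 106 for Dnah1. They ran from 2.58 to 23.4 for Susd2, 2.37 to 8.38 for Cdk5r1 and 2.02 to 10.8 for Ramp3. For Gstt1 they ran from 1.59 to 11.3, for Nptx2 from 1.58 to 8.18 and for Pla1a from 1.24 to 16.9. The share of all genes higher in every pair was not counted, so nothing is read from these ratios.

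By log2 fold change without tumor the members held ranks 3 to 13 among the 246 genes called higher. The genes between and above them were Lrcol1 (5.25), Dpysl5 (4.51), Vdr (3.73) and Tnfsf15 (3.46). The last member was Dnah1 at 3.41, with 7.4 CPM in NoTumor-CD40 against 0.7 CPM in NoTumor-NoCD40 libraries, and the next gene was Clec4e at 3.38, with 2.64 against 0.244 CPM. With tumor the 4 called members had ranks 15 (Abca13), 22 (Upp1), 38 (Dnah1) and 77 (Cdk5r1) among 116 genes called higher. The median log2 fold change of the 9 members was 2.20 with tumor and 3.55 without, against -0.02 and -0.04 over all genes tested.

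**Figure D2:**
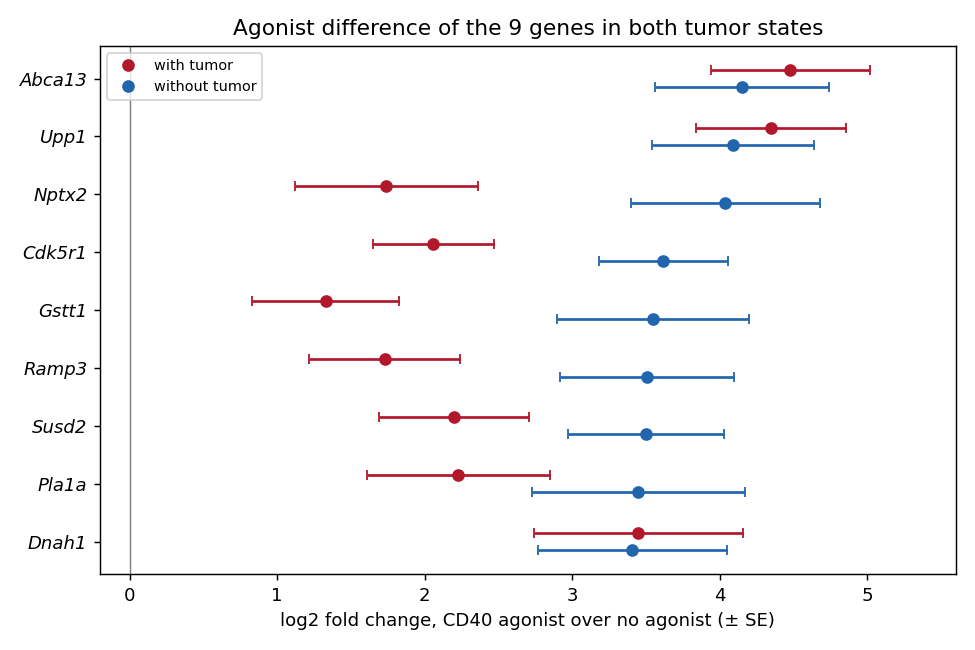
Log2 fold change of each gene with the agonist, with tumor (Tumor-CD40 over Tumor-NoCD40) and without tumor (NoTumor-CD40 over NoTumor-NoCD40); bars are ± 1 SE of the edgeR fit. Abca13, Upp1 and Dnah1 had like values in both states (4.48 and 4.15, 4.35 and 4.09, 3.45 and 3.41), and the other 6 genes had lower values with tumor.

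The tumor alone gave no member a difference that passed the test. In Tumor-NoCD40 against NoTumor-NoCD40 libraries 0 of 9 members passed, and 0% of all genes did, in edgeR's quasi-likelihood test; DESeq2 called 29 genes and 0 members. At an unadjusted p under 0.05 there were 2 members, Ramp3 and Gstt1, where 5.82% of all genes were at that level. Ramp3 averaged 18.2 ± 6.33 CPM in Tumor-NoCD40 and 5.13 ± 2.99 CPM in NoTumor-NoCD40 libraries (SD, n = 3 each), with a log2 fold change of 1.81 ± 0.60 (SE) and an adjusted p of 0.775 in edgeR. Gstt1 averaged 2.46 ± 2.09 CPM in Tumor-NoCD40 and 0.543 ± 0.326 CPM in NoTumor-NoCD40 libraries (SD, n = 3 each), with a log2 fold change of 2.12 ± 0.76 (SE) and the same adjusted p in edgeR; without the first Tumor-NoCD40 library it was 1.22, and without the first NoTumor-NoCD40 library 2.73. For Ramp3, Gstt1 and Pla1a every Tumor-NoCD40 library was above every NoTumor-NoCD40 library, 3 of 9 members against 4.06% of all genes. The estimates were above 0 for 8 of 9 members, with a median of 0.79 against -0.01 over all genes. Low levels without the agonist were part of how the members were chosen. Ccr7 was at 1429, 573 and 1678 CPM in Tumor-NoCD40 against 839, 582 and 390 CPM in NoTumor-NoCD40 libraries; the groups overlapped, the difference did not pass (log2 fold change 1.02, adjusted p = 0.775 in edgeR), and its part in the result was not tested.

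Between agonist groups, Tumor-CD40 and NoTumor-CD40 libraries overlapped for all 9 members, where 6.68% of all genes were higher and 6.2% lower with no overlap, and 0 of 9 passed the test, where 0.199% of all genes did (edgeR quasi-likelihood); DESeq2 called 166 genes and 0 members. The members were chosen on the levels of these libraries, so the values are descriptions. Nptx2 averaged 10.5 ± 2.69 CPM in Tumor-CD40 and 29.8 ± 22.7 CPM in NoTumor-CD40 libraries (SD, n = 3 each; log2 fold change -1.51 ± 0.51, SE, adjusted p = 0.382 in edgeR); without the third NoTumor-CD40 library its log2 fold change was -0.70. Abca13 averaged 44.3 ± 22.9 CPM in Tumor-CD40 and 23.7 ± 13.1 CPM in NoTumor-CD40 libraries (SD, n = 3 each; log2 fold change 0.91 ± 0.41, SE, adjusted p = 0.526 in edgeR). These were the 2 members with an unadjusted p under 0.05, where 9.32% of all genes were at that level. The other 7 estimates ran from -0.74 (Susd2) to 0.57 (Upp1).

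The difference between the agonist's fold changes with and without tumor was tested as an interaction, in which 0 of 9 members and 0% of all genes passed in edgeR's quasi-likelihood test; DESeq2 called 18 genes and 0 members. At an unadjusted p under 0.05 there were 4 members (Nptx2, Cdk5r1, Gstt1 and Ramp3), where 9.8% of all genes were at that level. Their estimates were -2.30 ± 0.94 (SE) for Nptx2, -2.22 ± 0.89 for Gstt1, -1.78 ± 0.77 for Ramp3 and -1.56 ± 0.59 for Cdk5r1. Without the third NoTumor-CD40 library the estimate for Nptx2 was -1.51, without the first NoTumor-NoCD40 library it was -3.01 for Nptx2 and -2.83 for Gstt1, and without the first Tumor-NoCD40 library it was -1.31 for Gstt1. For Abca13 the estimate was 0.34 ± 0.91 (SE), for Upp1 0.26 ± 0.88 and for Dnah1 0.04 ± 1.07, with intervals wide enough to hold a difference of more than 2-fold in either direction. The members' ranks are high in the comparison without tumor, so the choice of members is not independent of an interaction below 0.

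Per transcript length, the members lay at low to moderate levels. In Tumor-CD40 libraries Ramp3 was first at 31.1 ± 7.66 TPM and Upp1 followed at 24.6 ± 13.5 TPM (SD, n = 3), and their ranges overlapped. Pla1a (6.9 ± 3.38 TPM), Gstt1 (5.97 ± 3), Cdk5r1 (4.84 ± 1.64) and Susd2 (4.75 ± 1.91) came next and did not differ beyond their spread. Nptx2 (2.01 ± 0.373 TPM), Abca13 (2 ± 1.04) and Dnah1 (1.01 ± 0.404) were the lowest. In Tumor-NoCD40 libraries Ramp3 was again first, at 9.27 ± 2.79 TPM, and Abca13 and Dnah1 last, at 0.0883 ± 0.0502 and 0.0231 ± 0.0328 TPM. In NoTumor-CD40 libraries Ramp3 had 32 ± 21.4 TPM and Upp1 21.4 ± 6.11 TPM. The next 5 genes had means of 6.33 to 8.72 TPM with overlapping ranges, and Dnah1 (1.08 ± 0.384 TPM) and Abca13 (1.08 ± 0.574 TPM) were lowest. The place of Upp1 rests in part on short transcripts in its sum. Its main transcript, Upp1-202, alone had 7.10, 9.90 and 6.55 TPM in NoTumor-CD40 and 8.16, 23.1 and 9.14 TPM in Tumor-CD40 libraries. The places of Pla1a and Gstt1 also rest in part on a short transcript, of 415 and 468 bases. In Tumor-CD40 libraries Pla1a-201 alone had 3.91, 3.52 and 2.87 TPM, and Gstt1-201 alone had 3.23, 2.64 and 4.01 TPM. The order of the middle genes is therefore not fixed by the sums. In NoTumor-NoCD40 libraries Ramp3 had 2.47 ± 1.32 TPM and every other member had a mean under 1 TPM. Abca13, with a transcript of 16011 bases, is thus prominent in CPM and scarce in TPM.

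The counts of Abca13, Cdk5r1 and Nptx2 lay on 1 transcript or nearly so. Abca13-201, with 62 exons, held 100% of the Abca13 counts in Tumor-CD40, 99.4% in Tumor-NoCD40 and 100% in both groups without tumor. Cdk5r1-201, a single exon of 4162 bases, held 99.6% of the Cdk5r1 counts over all libraries, and Nptx2 has 1 transcript in the tables. Over all libraries Susd2-202 held 93.2% of the Susd2 counts, Pla1a-201 91.4% of the Pla1a counts and Ramp3-201 87.0% of the Ramp3 counts. In the first Tumor-CD40 library, 397 of 1179 Ramp3 counts were on Ramp3-202, a processed transcript. Upp1-202 (9 exons, 1157 bases) held 81.0% of the Upp1 counts in Tumor-CD40, 76.3% in Tumor-NoCD40, 68.5% in NoTumor-CD40 and 71.9% in NoTumor-NoCD40 libraries, and the rest was spread over short transcripts that differed from library to library. These shares are estimates of 1 program, made mostly from shared exons, and no test was run on them.

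Dnah1 had its counts split between 2 transcripts. Its full transcript, Dnah1-201 (78 exons, 12872 bases), held 21.0% of the Dnah1 counts in Tumor-CD40, 100% in Tumor-NoCD40, 44.8% in NoTumor-CD40 and 45.1% in NoTumor-NoCD40 libraries. The remaining counts were on Dnah1-202, a processed transcript with no annotated protein that lies in the 3′ part of the gene (chr14:31261992-31269511, 17 exons, 2897 bases). It had 122, 140 and 59.7 expected counts in Tumor-CD40, none in Tumor-NoCD40, 68.0, 125 and 115 in NoTumor-CD40, and 2.87, 10 and 16.0 in NoTumor-NoCD40 libraries. Much of the Dnah1 signal with the agonist was therefore assigned to a transcript that does not encode the motor protein. The full transcript had 16.4, 52.9 and 16.3 counts in Tumor-CD40, against 3, 2 and 35 in Tumor-NoCD40 libraries, which overlap. It had 52.0, 105 and 93.2 counts in NoTumor-CD40, against 13.7, 0 and 10.05 in NoTumor-NoCD40 libraries. These are counts as deposited, not scaled to library size.

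The split of Gstt1 also varied between groups. Gstt1-201 (5 exons, 1037 bases) held 82.2% of the Gstt1 counts in Tumor-CD40, 35.5% in Tumor-NoCD40, 72.8% in NoTumor-CD40 and 73.0% in NoTumor-NoCD40 libraries. In the first Tumor-NoCD40 library, 76.2 of 118 counts were on Gstt1-203, a short transcript of 468 bases, and its Gstt1 level there was 8.42 TPM. Gstt1-201 alone had 119, 95.7 and 144 counts in Tumor-CD40, against 15.8, 27.0 and 23.1 in Tumor-NoCD40 libraries. That transcript had 113, 109 and 131 counts in NoTumor-CD40, against 20.0, 2.63 and 8 in NoTumor-NoCD40 libraries. These are counts as deposited, not scaled to library size, and nothing is read from them. Gstt1 has close paralogs beside it, and how reads shared between them were divided is not given in the sources used here.

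Within groups the members did not all vary alike, which was seen in the data and not set in advance. The deviations of log2 CPM from the group means were compared over the 12 libraries, as a description; the points share library, depth and composition. Nptx2, Susd2, Cdk5r1 and Ramp3 were high where Ccr7 was high, with r of 0.94, 0.88, 0.87 and 0.71. Gstt1 and Pla1a were in between, with r of 0.58 and 0.54, and Dnah1 had 0.34. Upp1 and Abca13 ran the other way, with r of -0.35 and -0.37 to Ccr7 and of 0.56 and 0.75 to Xcr1. Ccr7 and Xcr1 themselves had r of -0.83. Over the 36 pairs of members, r of the deviations ran from -0.45 to 0.79 with a median of 0.25; the pair Upp1 and Abca13 had 0.63, and Nptx2 had 0.79 with both Cdk5r1 and Susd2.

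In NoTumor-CD40 the libraries show this directly. The third NoTumor-CD40 library had the highest Ccr7 (3251 CPM) and the lowest Xcr1 (49.5 CPM) of its group, and the highest level of its group for 5 of 9 members, among them Nptx2 (55 CPM) and Cdk5r1 (99.7 CPM), while Upp1 (13 CPM) and Abca13 (13.6 CPM) were at their group's lowest. The second NoTumor-CD40 library had 1368 CPM of Ccr7 and 533 CPM of Xcr1 and was the lowest of its group for 6 members. Other groups differed from this for Upp1 and Abca13. In Tumor-CD40 the library with the highest Ccr7, the second (1642 CPM), also had the highest Upp1 (44.6 CPM) and Abca13 (70.3 CPM), and in NoTumor-NoCD40 the first library was highest for Ccr7 (839 CPM), Upp1 (1.42 CPM) and Abca13 (1.99 CPM). Nptx2 in Tumor-CD40 was highest in the first library (13.3 CPM), where Ccr7 was lowest (1416 CPM). The members varied more within groups than most genes: the median ratio of the highest to the lowest library was 1.79 over the members against 1.55 over all genes in Tumor-CD40, 4.05 against 1.83 in Tumor-NoCD40, 2.83 against 1.73 in NoTumor-CD40, and 2.32 against 1.54 in NoTumor-NoCD40. The part of counting error in this spread was not tested.

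**Figure D3:**
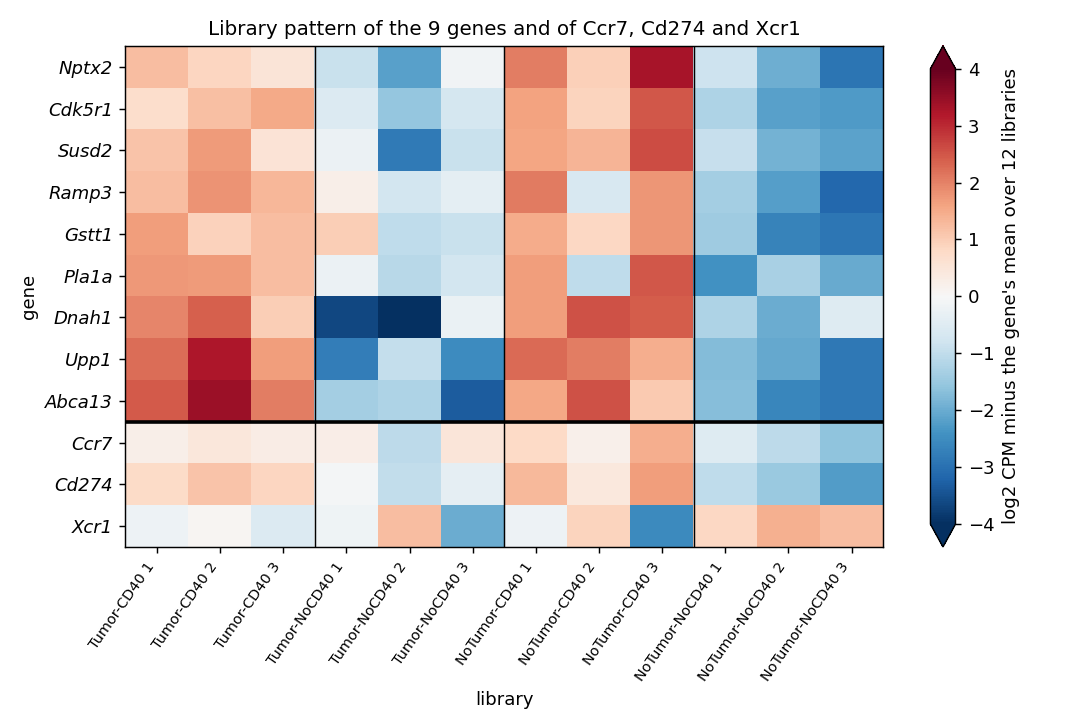
Log2 CPM of the 9 genes in each library, centred on each gene's mean over the 12 libraries, with Ccr7, Cd274 and Xcr1 as reference rows; colours stop at -4 and 4, which cuts 1 value, Dnah1 in the second Tumor-NoCD40 library. The agonist columns lie above each gene's mean apart from Ramp3 (13.9 CPM) and Pla1a (2.04 CPM) in the second NoTumor-CD40 library, and the third NoTumor-CD40 library is highest of its group for Nptx2 (55 CPM) and lowest for Upp1 (13 CPM).

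Ccr7 itself was higher with the agonist in part of the libraries, so the members were also set against it. Ccr7 was 1416, 1642 and 1479 CPM in Tumor-CD40, 1429, 573 and 1678 CPM in Tumor-NoCD40, 2053, 1368 and 3251 CPM in NoTumor-CD40, and 839, 582 and 390 CPM in NoTumor-NoCD40 libraries. In the first and the third Tumor-NoCD40 libraries Ccr7 was about as high as in Tumor-CD40 libraries. Upp1 had 0.702 and 0.836 CPM in these 2 libraries, against 15.1 to 44.6 CPM in Tumor-CD40 libraries. Nptx2 had 3.06 and 5.05 CPM against 7.97 to 13.3 CPM, and Gstt1 had 4.88 and 1.31 CPM against 4.67 to 7.75 CPM. Gstt1 was the only member whose Tumor-CD40 and Tumor-NoCD40 libraries overlapped. The part of Ccr7-high cells in the members' differences was not tested. Per 1000 CPM of Ccr7, Cdk5r1 had 20.1, 25 and 34.4 CPM in Tumor-CD40, 8.41, 10.6 and 6.52 CPM in Tumor-NoCD40, 26.3, 24 and 30.7 CPM in NoTumor-CD40, and 8.94, 6.73 and 9.45 CPM in NoTumor-NoCD40 libraries. On that scale both agonist groups of Cdk5r1 stood apart from both others. For 8 of 9 members with tumor and 7 of 9 without, the agonist libraries were higher with no overlap per unit of Ccr7, as 2.17% and 0.497% of all genes were, and for Nptx2, Cdk5r1 and Susd2, 3 of 9, this held over both tumor states together, as for 0.116% of all genes. Per unit of the summed level of a list of 27 genes of mature dendritic cells, the members' counts were 9 with tumor (4.31% of all genes), 8 without (1.2%) and 7 over both (0.376%). The members were chosen on differences between these same libraries, so nothing is read from these counts.

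**Figure D4:**
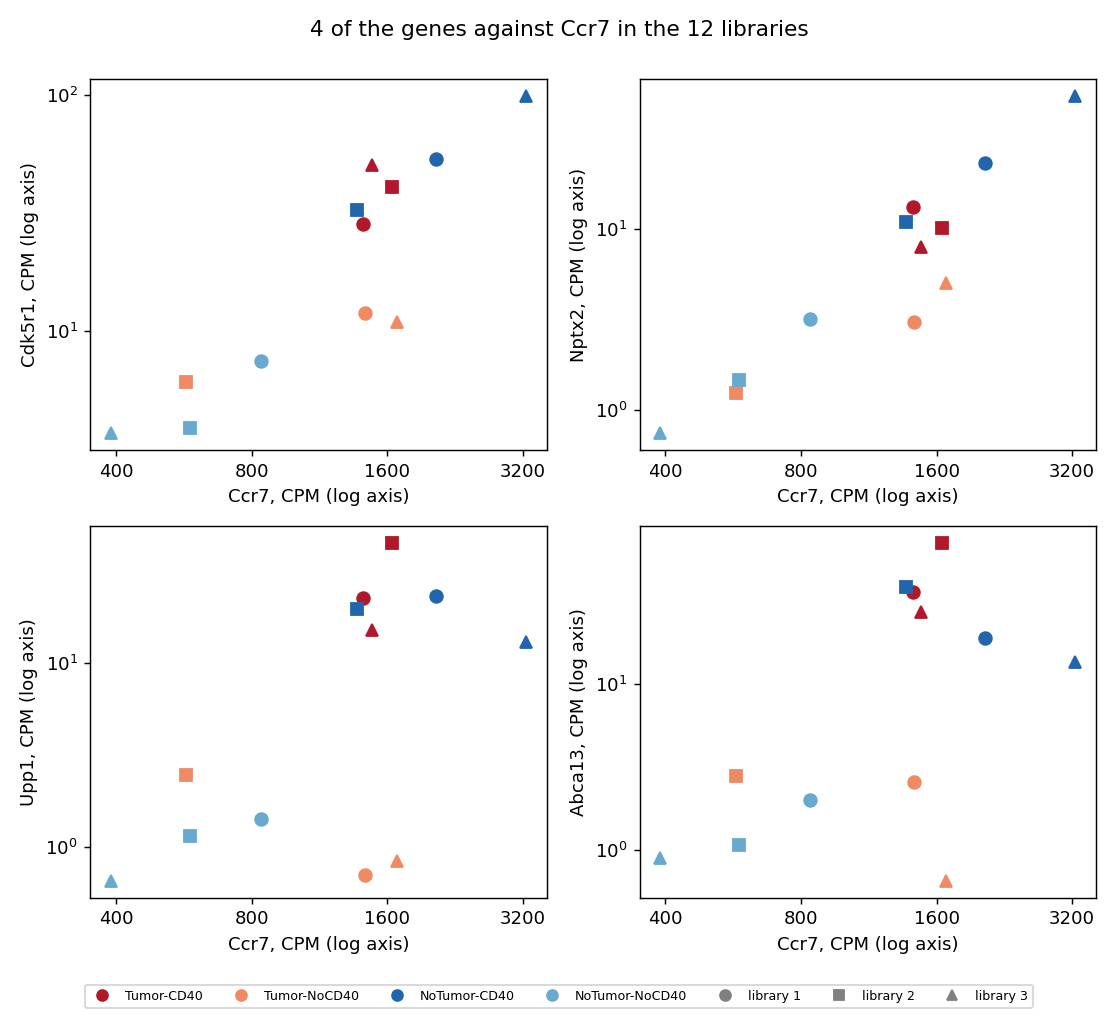
Level of 4 of the genes against Ccr7 in the same library, both in CPM on log axes, coloured by group; each point is 1 library. At 1416 to 1678 CPM of Ccr7 lie the Tumor-CD40 libraries and the first and the third Tumor-NoCD40 libraries. There Upp1 had 15.1 to 44.6 CPM against 0.702 and 0.836 CPM, and Nptx2 had 7.97 to 13.3 CPM against 3.06 and 5.05 CPM.

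Markers of other cells moved with some of these comparisons. The summed level of 14 B cell genes was 1240 to 3320 CPM in Tumor-CD40 against 217 to 432 CPM in Tumor-NoCD40 libraries, with 11 of 14 higher by the test, and 343 to 532 CPM in NoTumor-CD40 against 293 to 385 CPM in NoTumor-NoCD40 libraries, with 0 of 14. The members' deviations from group means had r of -0.78 (Dnah1) to 0.39 (Gstt1) with that sum over the 12 libraries, and its part in the members' differences was not tested. The summed level of 10 endothelial genes was 46.2 to 93 CPM in Tumor-CD40 against 21 to 27.5 CPM in Tumor-NoCD40 libraries, and 33.2 to 50.5 CPM in NoTumor-CD40 against 21.5 to 25.5 CPM in NoTumor-NoCD40 libraries; Kdr was the 1 gene called in each comparison, and Tek, Lyve1, Prox1 and Emcn stayed under 1 CPM in all 12 libraries. Ramp3 is known from endothelial cells, and the part of such cells in its result was not tested. The summed level of 9 plasmacytoid dendritic cell genes was 526 to 659 CPM in Tumor-CD40 against 210 to 278 CPM in Tumor-NoCD40 libraries. It was 318 to 599 CPM in NoTumor-CD40 against 176 to 259 CPM in NoTumor-NoCD40 libraries, with 1 of 9 called in each. Much of this sum was 1 gene, Spib, which averaged 245 CPM in Tumor-CD40 and 79.2 CPM in Tumor-NoCD40 libraries. Spib averaged 251 CPM in NoTumor-CD40 and 42.6 CPM in NoTumor-NoCD40 libraries, and it is among the 10 genes most like the members. The r of the sum with Cdk5r1 was 0.93, and the part of plasmacytoid cells was not tested. Other lists moved too. The summed level of 5 Langerhans cell genes was 12.6 to 19.1 CPM in Tumor-CD40 against 37.1 to 88.9 CPM in Tumor-NoCD40 libraries. It was 24.7 to 90.1 CPM in NoTumor-CD40 against 99 to 130 CPM in NoTumor-NoCD40 libraries. Neutrophil sums overlapped, but reached 28.9 CPM in Tumor-CD40 and 33.8 CPM in NoTumor-CD40, against at most 4.86 and 3.41 CPM without agonist. The part of these cells was not tested.

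Neuronal and ciliated cell genes were measured beside the synaptic and ciliary members. The summed level of 8 neuronal or glial genes was 4.02 to 5.28 CPM in Tumor-CD40, 3.02 to 6.78 CPM in Tumor-NoCD40, 4.32 to 4.99 CPM in NoTumor-CD40 and 3.03 to 4.76 CPM in NoTumor-NoCD40 libraries, and Snap25 was at 0 in all 12. Of 7 ciliated cell genes, 6 were found in the annotation. Their summed level was 8.48 to 12.8 CPM in Tumor-CD40, 5.78 to 11.7 CPM in Tumor-NoCD40, 10.2 to 18.6 CPM in NoTumor-CD40 and 11 to 14 CPM in NoTumor-NoCD40 libraries, and Tekt1 was at 0 in all 12. Only 3 of the 8 neuronal or glial genes and 5 of the 7 ciliated cell genes passed the filter. None of these was called in any comparison, and the part of such cells was not tested.

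Partners and pathway genes of the members were taken from lists without the members themselves. Of 30 tested genes of pyrimidine and nucleoside salvage other than Upp1, 0 passed with tumor, and without tumor 1 was higher and 1 lower. Over all genes, 0.641% were called higher with tumor and 1.36% without. Samhd1, which breaks down deoxynucleotides, rose to 1015 ± 161 CPM in NoTumor-CD40, against 589 ± 65.7 CPM in NoTumor-NoCD40 libraries (SD, n = 3 each; log2 fold change 0.78, adjusted p = 0.0431 in edgeR). Dtymk, the thymidylate kinase, fell to 15.6 ± 3.83 CPM in NoTumor-CD40, against 31.4 ± 2.65 CPM in NoTumor-NoCD40 libraries (SD, n = 3 each; log2 fold change -1.01, adjusted p = 0.0277 in edgeR). The paralog Upp2 was under 1 CPM on average in every group. Over the list, log2 fold changes had a median of -0.04 with tumor and -0.39 without.

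In 8 further pathway lists no gene other than a member was called in any comparison. They were ABC transporters of subfamilies A and G (11 tested), activators of CDK5 with calpains (11), glutathione transferases and synthesis (24), receptors and ligands of the calcitonin family (6), pentraxins with AMPA receptor subunits (2), sushi domain proteins with galectin 1 (4), enzymes and receptors of lysophosphatidylserine (10) and axonemal dynein chains (12). Their medians with the agonist ran from -1.05 (pentraxins) to 0.31 (dynein chains) with tumor and from -0.72 (sushi domain proteins) to 0.44 (calcitonin family) without. Over all genes, only 0.641% were called higher with tumor and 1.36% without. The lists are short against these shares, so nothing is read from the lack of calls. The kinase Cdk5, which Cdk5r1 activates, was at 19.8 ± 3.98 CPM in Tumor-CD40, 18.8 ± 4.74 in Tumor-NoCD40, 20.9 ± 3.9 in NoTumor-CD40 and 17.4 ± 3.59 in NoTumor-NoCD40 libraries (SD, n = 3 each), and Cdk5r2, the other activator, was near 0.

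Ramp3's receptor Calcrl was at 23.1 ± 2.32 CPM in Tumor-CD40, 28.2 ± 10 in Tumor-NoCD40, 32.1 ± 6.58 in NoTumor-CD40 and 18.3 ± 0.925 in NoTumor-NoCD40 libraries (SD, n = 3 each; agonist without tumor log2 fold change 0.81, adjusted p = 0.131 in edgeR). Ramp1, which makes the same receptor into one for calcitonin gene-related peptide, was at 26.7 ± 4.63 CPM in Tumor-CD40, 46.5 ± 18 in Tumor-NoCD40, 31.2 ± 21.3 in NoTumor-CD40 and 80.6 ± 12.7 in NoTumor-NoCD40 libraries (SD, n = 3 each). Its log2 fold change with the agonist was -0.80 with tumor (adjusted p = 0.553, edgeR) and -1.37 without (adjusted p = 0.113, edgeR), so neither passed. Ramp2 was under 1 CPM on average in every group, and the ligand gene Adm had 7.77 ± 0.0711 CPM in Tumor-CD40, 19.2 ± 15 in Tumor-NoCD40, 9.64 ± 2.82 in NoTumor-CD40 and 10.7 ± 6.85 in NoTumor-NoCD40 libraries (SD, n = 3 each).

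Of the receptors for lysophosphatidylserine, the product of Pla1a, P2ry10 had means of 117 CPM in Tumor-CD40, 101 in Tumor-NoCD40, 126 in NoTumor-CD40 and 121 in NoTumor-NoCD40 libraries. Gpr34 had 20.5 ± 3.94 CPM in Tumor-CD40, 24 ± 23.9 in Tumor-NoCD40, 17.9 ± 11.2 in NoTumor-CD40 and 48.9 ± 7.42 in NoTumor-NoCD40 libraries (SD, n = 3 each), and its log2 fold change of -1.44 without tumor did not pass (adjusted p = 0.229, edgeR). Gpr174 had means of 15.7 CPM in Tumor-CD40, 10.9 in Tumor-NoCD40, 4.49 in NoTumor-CD40 and 4.08 in NoTumor-NoCD40 libraries. Galectin 1 (Lgals1), the binding partner of human SUSD2, had 74.2 ± 24.8 CPM in Tumor-CD40, 89.5 ± 12 in Tumor-NoCD40, 68.9 ± 9.61 in NoTumor-CD40 and 99.6 ± 33.8 in NoTumor-NoCD40 libraries (SD, n = 3 each). Nptxr, the membrane-bound relative of Nptx2, had means of 1.44 CPM in Tumor-CD40, 3.67 in Tumor-NoCD40, 2.24 in NoTumor-CD40 and 4.21 in NoTumor-NoCD40 libraries, and Nptx1, Abca12 and Gstt4 were below the filter.

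Genes beside the members on the chromosomes were followed as well. Within 250 kb of a member's start there were 63 neighbouring protein-coding genes, of which 50 were tested. With tumor 0 were called with the agonist, and without tumor 3 of 50 were higher, where 1.36% of all genes were, and 0 lower, with medians of 0.01 and 0.11. The 3 that rose all lie near Pla1a. Cd80, the costimulatory ligand of CD28, starts 22.4 kb away and had 97.9 ± 35.3 CPM in NoTumor-CD40 against 29 ± 4.41 CPM in NoTumor-NoCD40 libraries (SD, n = 3 each; log2 fold change 1.76, adjusted p = 0.00717 in edgeR). Adprh, which removes ADP-ribose from proteins, starts 19.6 kb away (log2 fold change 0.77, adjusted p = 0.0442 in edgeR), and Tmem39a starts 125.6 kb away (log2 fold change 1.15, adjusted p = 0.0235 in edgeR).

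Upp1 and Abca13 start 73.8 kb apart on the same strand of chromosome 11, and Gstt1 and Susd2 start 154.6 kb apart on the same strand of chromosome 10. Hus1, on the other side of Upp1 at 106.9 kb, had a log2 fold change with the agonist of 0.18 with tumor and 0.11 without and was called in neither. Gstt3, 17.2 kb from Gstt1, had 11.6 ± 2.85 CPM in Tumor-CD40, 11.6 ± 3.44 in Tumor-NoCD40, 10.8 ± 0.822 in NoTumor-CD40 and 6.22 ± 0.98 in NoTumor-NoCD40 libraries (SD, n = 3 each; log2 fold change 0.00 with tumor and 0.79 without, the second with adjusted p = 0.193 in edgeR). Gstt2, 38.8 kb away, had a log2 fold change of 0.69 with tumor and 0.75 without, and neither passed. On the opposite strand, Gm11978 overlaps Ramp3 and Gm35823 overlaps Dnah1, and both were near 0 in every group.

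**Figure D5:**
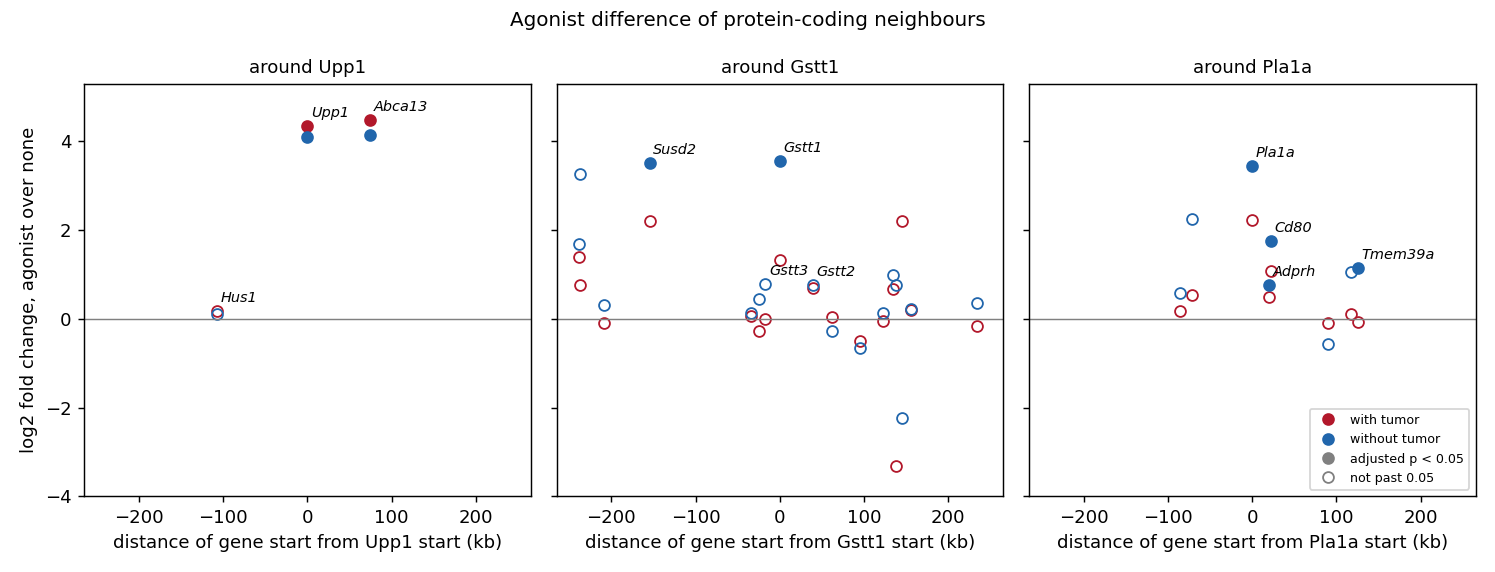
Log2 fold change with the agonist, with tumor (Tumor-CD40 over Tumor-NoCD40) and without tumor (NoTumor-CD40 over NoTumor-NoCD40), of the tested protein-coding genes around Upp1, Gstt1 and Pla1a, by distance of their start from that of the named gene in kb; filled points passed an adjusted p of 0.05, and Gm20441, which lies near Gstt1, is left out. Gm20441 had a log2 fold change of 8.72 ± 3.69 (SE) with tumor, above the axis, from means of 2.08 CPM in Tumor-CD40 and 0 CPM in Tumor-NoCD40 libraries. Without tumor the filled points are Upp1 and Abca13 (4.09 and 4.15), Gstt1 and Susd2 (3.55 and 3.50), Pla1a (3.45), Cd80 (1.76), Tmem39a (1.15) and Adprh (0.77), and the open points around Gstt1 run from -2.23 (Vpreb3) to 3.26 (Ggt1).

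The genes whose levels over the 12 libraries were most like the mean standardised level of the 9 members, out of 13262 genes averaging 1 CPM or more, were Vdr and Oasl1 (Pearson r 0.982 each), Bcl2l14 (0.980), Oasl2 and Ccdc6 (0.979 each), Bcl3 (0.976), Cd274 (0.974), Sema7a (0.973), Ehd1 (0.969) and Spib (0.966). The groups lie apart, so these values mostly restate the difference with the agonist, and libraries share depth and composition. Vdr, the vitamin D receptor, averaged 49.7 ± 20.3 CPM in Tumor-CD40, 8.49 ± 3.09 in Tumor-NoCD40, 80.9 ± 43.1 in NoTumor-CD40 and 6.06 ± 2.91 in NoTumor-NoCD40 libraries (SD, n = 3 each). Cd274 averaged 209 ± 29.6 CPM in Tumor-CD40, 81.4 ± 24.9 in Tumor-NoCD40, 253 ± 102 in NoTumor-CD40 and 38.8 ± 15.3 in NoTumor-NoCD40 libraries (SD, n = 3 each). Oasl1 and Oasl2 are interferon-induced genes, and of a list of 26 interferon response genes 12 were called higher with tumor and 12 without, with median log2 fold changes of 1.54 and 1.12. Of 27 genes of mature dendritic cells, 0 were called with tumor and 9 were higher without, with medians of 0.04 and 1.12.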

How the data were processed

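RNA of cDC1 from mouse inguinal lymph nodes was sequenced in 12 libraries, made with a strand-marking NEBNext kit per the labels' protocols. Salmon and mm10 are named in the submitters' processing notes, while the deposited values carry the name sailfish. Version and annotation are not given in the sources used here. The authors deposited expected counts per transcript, without normalization, and TPM per transcript, scaled by length and to a common total.

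With GENCODE M21 (GRCm38), 136176 transcripts were assigned to 53458 genes, and values were summed per gene; the other transcripts held 0.0279% to 0.0457% of a library's counts and were left out. Expected counts were rounded and fitted in R 4.3.3 with edgeR 4.0.16 (TMM; filterByExpr with minimum count 10 and total 15, leaving 18095 genes; glmQLFit with legacy = FALSE; 4 group means over 12 libraries, 8 residual degrees of freedom; two-sided quasi-likelihood F tests; Benjamini-Hochberg, threshold 0.05). All 9 members passed the filter. The SE was derived as the size of the log2 fold change divided by the root of its F value. The common biological coefficient of variation was 59.0%. Expected counts carry counting error and the error of dividing reads between transcripts. DESeq2 1.42.0, limma 3.58.1 on log2(TPM + pseudocount) and other alternatives were tried, and the script was tested on simulated data.

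The members and gene lists were chosen with earlier results of these data known. Genes named besides members are partners and paralogs, called genes of each list, neighbours within 250 kb, and the 10 genes most alike; Ccr7, Xcr1 and genes beside the members in rank were chosen after their values were seen. Libraries 1 to 3 of a group are numbered in accession order.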

Additional observations from a re-analysis of the deposited data

How the results depend on the processing

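Over 19 alternatives, every agonist log2 fold change of the 9 members stayed above 0 in both tumor states (171 of 171 values each). The members were chosen on these differences in the same libraries, so nothing is read from that count. In the order of fits with DESeq2, no filter, log2(TPM + 1), log2(TPM + 0.1) and the title prefix as replicate block, genes called without tumor numbered 913, 401, 31, 29 and 48, against 261, and members called 9, 9, 1, 2 and 3, against 9. With tumor the genes were 316, 200, 29, 21 and 229, against 124, and 61 with legacy = TRUE; members were 7 with DESeq2, 2 with legacy = TRUE and 1 with log2(TPM + 1), against 4. For the tumor without agonist the counts were 29 with DESeq2 and 1 with no filter, against 0. For the tumor with agonist they were 166, 89, 12, 6 and 83, and 0 with legacy = TRUE, against 36. For the interaction they were 18 with DESeq2 and 2 with log2(TPM + 1), against 0. The cause of these shifts was not tested.

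Leaving out 1 library gave 22 (without the third NoTumor-NoCD40 library) to 947 (without the second NoTumor-CD40 library) genes (also 23 and 128 without the second and the first NoTumor-NoCD40, 80 and 48 without the first and the third NoTumor-CD40, 617 and 152 without the second and the first Tumor-NoCD40, and 158 and 172 without the first and the third Tumor-CD40 library) and 2 to 9 members without tumor, and 26 (without the first Tumor-NoCD40 library) to 226 (without the second) genes (also 48 without the third Tumor-NoCD40 and 45 without the third Tumor-CD40 library) and 2 to 6 members with tumor. The tumor comparisons gave 0 to 2 genes without agonist and 0 to 71 with agonist, and 0 members. Deviations from group means correlated at 0.004 to 0.228 over 15 pairs of libraries with a common title prefix (3 over 0.1). Over 39 other pairs they correlated at -0.19 to 0.088. The main fit did not take prefixes to pair samples, but all 15 values were above 0, so a shared part is not excluded. The third NoTumor-NoCD40 library is alone in its prefix, so the replicate block cannot compare it with other groups. Without tumor 3 members passed in that fit. With the replicate block, pairing libraries by title prefix, Dnah1 turned to 0.0096 for the tumor without agonist and to -0.41 in the interaction, and Pla1a to 0.10 for the tumor with agonist. Pla1a there was 0.30 with log2(TPM + 1) and 0.56 with log2(TPM + 0.1), and the interaction of Upp1 was -0.11 and -0.36. Leaving out 1 library, the tumor without agonist ran from -2.75 to 0.0786 for Dnah1 and from -0.48 to 0.61 for Upp1; the tumor with agonist from -0.56 to 0.73 for Pla1a, -0.43 to 0.45 for Ramp3 and -0.32 to 0.13 for Gstt1; and the interaction from -0.16 to 0.87 for Abca13, -0.29 to 1.05 for Upp1 and -0.48 to 2.35 for Dnah1.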
